A study of Homo sapiens with 4 samples.

Results

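C-type natriuretic peptide is a small secreted hormone encoded by NPPC, and it was examined here together with the genes that release it, bind it and carry its signal inside the cell. The 8 genes were NPPC, its receptors NPR1, NPR2 and NPR3, the protease gene FURIN, the kinase genes PRKG1 and PRKG2, and the phosphodiesterase gene PDE5A. They are 8 of the 26364 gene symbols in the count table, and all 8 passed the filter on low counts that left 15599 genes for testing. The group was built around NPPC, which was selected on its measured counts, being higher with estradiol in both sets of cells, so its estradiol difference is given as a description without a test. The other 7 genes were listed for their roles.

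Signalling starts when furin, a protease of the secretory pathway, cuts the NPPC precursor. The peptide binds NPR2, a guanylate cyclase in the cell membrane that makes the second messenger cGMP. NPR1 is the related cyclase for the atrial and brain peptides, and NPR3 is a receptor without a cyclase domain that takes the peptides up and clears them. The cGMP activates the protein kinases encoded by PRKG1 and PRKG2, and the phosphodiesterase encoded by PDE5A breaks it down. In the reproductive tract the peptide is best known from the ovary, where granulosa cells make it and NPR2 on cumulus cells holds the oocyte in meiotic arrest.

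The cells were Ishikawa, a human endometrial adenocarcinoma line, and all libraries came from cells whose ESR1, the estrogen receptor alpha gene, carried the Y537S mutation. Per the labels, cells spent at least 5 days in medium stripped of hormones and then 8 h with either 10 nM estradiol (E2) or the vehicle, 0.1% DMSO. The labels name 2 mutant clones, each with 1 DMSO and 1 E2 library, which makes 2 libraries a group. The table's columns carry the tags A4 and B212 instead of clone numbers, no label links the tags to the clones, and libraries are named here by tag and treatment. No unmutated cells were analysed here, so nothing below separates the effect of the mutation.

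Libraries held 71575816 to 85222856 counts. Levels are given as CPM, the counts scaled to a common library size. ESR1 itself stood at 110 (A4) and 107 (B212) CPM in DMSO and at 97.0 and 86.5 CPM in E2. All 8 epithelial markers were above 1 CPM in every library, with a summed level of 2301 to 3063 CPM. Markers listed for other cell types were partly present. Above 1 CPM in every library were 2 of 7 stromal markers (COL1A1 with 2531 to 9363 counts and THY1 with 87 to 290), 3 of 5 smooth muscle markers (ACTA2, CNN1 and TAGLN), 1 of 4 endothelial markers (VWF with 167 to 372 counts) and 1 of 5 leukocyte markers (CD68 with 92 to 176). KDR (endothelium) had 16 to 52 counts and PTPRC (leukocytes) 25 to 37. PECAM1 (endothelium), CD3E and MS4A1 (lymphocytes) had 0 counts in all libraries, where 3 counts would be 0.0351 to 0.0410 CPM, and DCN (stroma) had at most 1 count. Each combination of tag and treatment was 1 library, so p-values measure only the spread between these libraries. Where a fit holds both tag and treatment, that spread is how far the E2 difference varies between the tags, with information shared across genes. No replicate culture of the same tag and treatment enters it.

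The promoter of NPPC is shown because this gene carried the largest E2 difference of the 8, and that of NPR2 because it encodes the signalling receptor of the same peptide. Both are the 250 bases before the start of the gene, from RefSeq on the GRCh38.p14 build, whereas the submitters' processing notes name hg19 for the counts. The NPPC window is chr2:231926397-231926646 on the minus strand and the NPR2 window is chr9:35791341-35791590 on the plus strand. Capitals mark the GC box (GGGCGG) and the TATA box (TATAAA), each searched on both strands.
NPPC: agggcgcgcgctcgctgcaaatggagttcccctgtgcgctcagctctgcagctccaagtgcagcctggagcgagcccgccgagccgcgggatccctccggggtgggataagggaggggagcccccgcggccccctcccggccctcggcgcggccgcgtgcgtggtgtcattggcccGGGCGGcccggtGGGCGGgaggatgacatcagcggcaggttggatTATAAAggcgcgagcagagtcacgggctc
NPR2: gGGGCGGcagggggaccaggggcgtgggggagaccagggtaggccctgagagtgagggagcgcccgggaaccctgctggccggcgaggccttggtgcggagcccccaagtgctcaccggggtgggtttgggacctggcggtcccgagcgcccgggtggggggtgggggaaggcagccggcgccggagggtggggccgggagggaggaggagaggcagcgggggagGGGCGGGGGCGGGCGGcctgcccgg
The NPPC window held 2 GC boxes and a TATA box whose first base lies 29 bases before the start. The NPR2 window held 4 GC boxes, some overlapping one another, and no TATA box. Of all 35116 promoter windows of this length, 42.6% held a GC box and 10.7% a TATA box. A single arm of the estrogen response element (GGTCA, searched on both strands) was in 32.6% of all windows and in 3 of the 15 windows of the 8 genes, at 1 start each of NPR3, FURIN and PRKG2. These are matches of letters in short windows only.

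The genes stood at very different levels. Compared per length, as CPM per kilobase of the longest coding transcript in GENCODE 29, FURIN was highest at 13.6 ± 2.48 (SD over the 4 libraries) and NPPC followed at 7.21 ± 3.47. PDE5A had 2.24 ± 0.568 CPM per kilobase, NPR3 2.07 ± 1.64, PRKG2 1.03 ± 0.258, NPR2 0.705 ± 0.161, NPR1 0.661 ± 0.0757 and PRKG1 0.122 ± 0.0336. The SDs include the differences between tags and treatments. The means of PDE5A and NPR3 lay within this spread, but the order of these genes turned between the tags. NPR3 had 3.71 and 3.26 CPM per kilobase in A4 DMSO and A4 E2, against 1.69 and 1.83 for PDE5A. In B212 NPR3 had 0.648 and 0.667, against 2.83 and 2.63 for PDE5A. With these lengths the means of NPR2 and NPR1 also lay within the spread. With the median coding length of each gene in place of the longest, FURIN and NPPC stayed at ranks 1 and 2. NPR1 and PRKG1 stayed at ranks 7 and 8, while the 4 genes between them changed places. NPR2 then had 3.15 ± 0.719 CPM per kilobase (SD) against 0.661 ± 0.0757 for NPR1. How near NPR2 and NPR1 stand thus depends on the transcript length assumed.

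**Figure D1:**
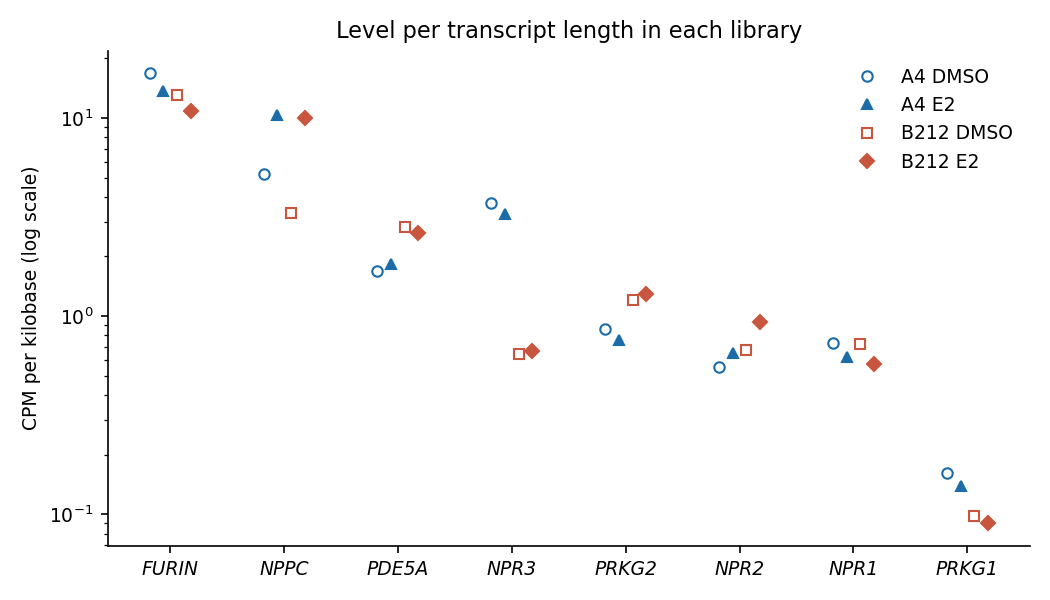
Level of each gene in CPM per kilobase of its longest coding transcript (log axis), with genes ordered by their mean. Open symbols are DMSO and filled symbols E2 libraries, blue for A4 and red for B212. NPPC parts by treatment (3.32 and 5.24 in DMSO, 9.96 and 10.3 in E2), whereas NPR3 parts by tag (3.26 and 3.71 in A4, 0.648 and 0.667 in B212).

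The first comparison was E2 against DMSO, which asks how the genes of the peptide pathway stood in mutant cells with and without the ligand of the receptor. NPPC went from 403 to 889 counts in the A4 cells and from 298 to 767 in the B212 cells. Its levels were 5.50 and 3.49 CPM in DMSO against 10.8 and 10.5 CPM in E2, for A4 and B212 in that order. The E2 libraries stood close together and above both DMSO libraries. NPPC was chosen for being higher with E2 in both sets of cells, so this separation is a description only.

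Within A4 the NPPC level was 1.97-fold higher with E2 (95% interval 1.75 to 2.22), and within B212 it was 3.0-fold higher (2.62 to 3.44). These intervals, from exact binomial limits on the 2 counts, cover counting error only. The B212 log2 difference exceeded that of A4 by 0.61, with an interval of 0.34 to 0.87 from the counts alone. Since each tag had 1 library per treatment, the difference between the tags has no replicate check. The DMSO level was the lower in B212 and the E2 levels were nearly equal.

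Over both tags the log2 fold change of NPPC was 1.27 ± 0.13 (SE) when the fit held the tag as a block and 1.24 ± 0.30 when it did not. NPPC has a transcript of 1051 bases, the shortest of the 8 genes. Once each library was corrected for a trend on the length and GC content of transcripts, its log2 fold change with the block was 1.14. In the fit with no block, leaving out a single library gave values from 0.95 (without B212 DMSO) to 1.61 (without A4 DMSO). Among the 12489 tested genes with a mean of at least 100 counts, NPPC was at rank 5 by the smaller of its A4 and B212 log2 differences. NPPC was chosen on these same values, so the rank is a description and no test.

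**Figure D2:**
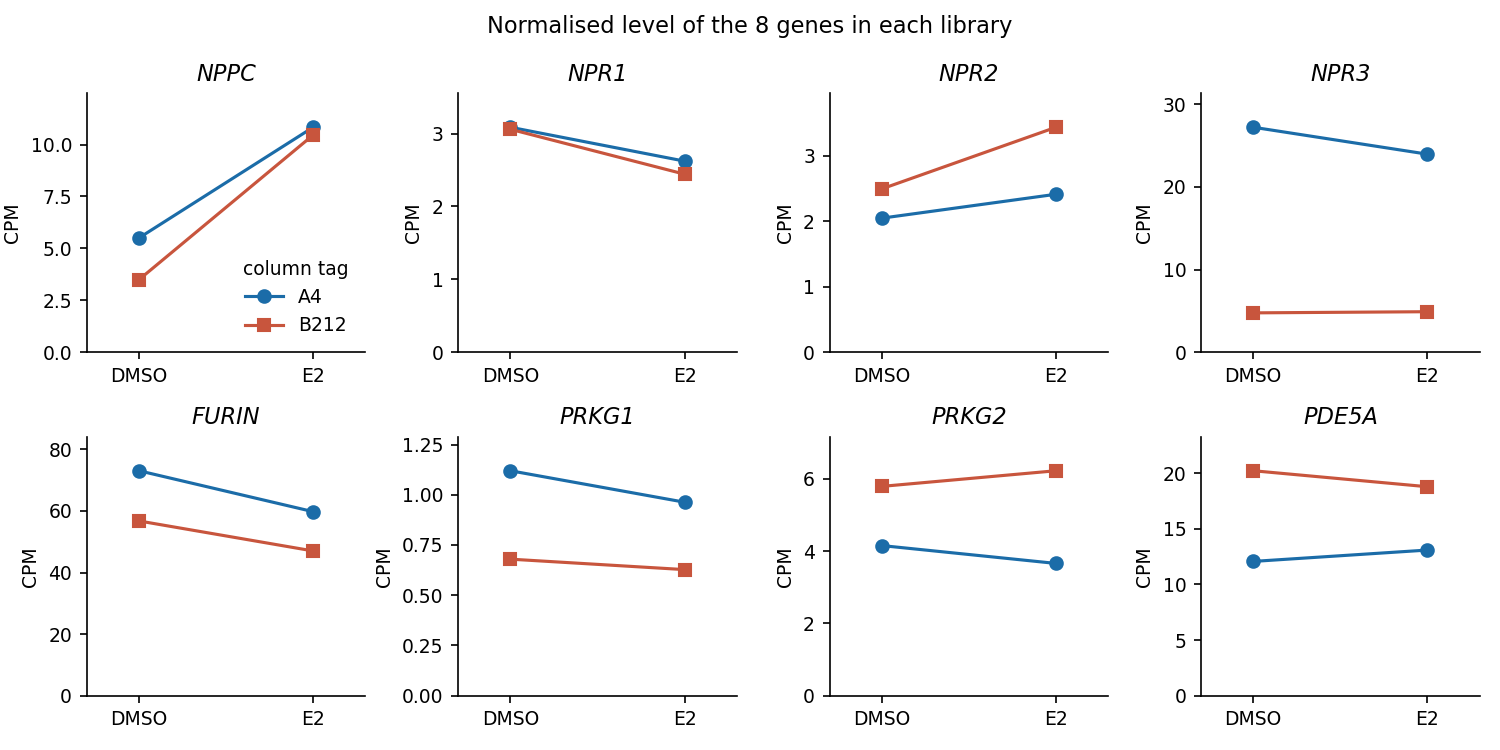
Level of each gene in CPM in the DMSO and E2 libraries, with a line joining the libraries of a tag (blue circles A4, red squares B212) and every axis starting at 0. NPPC climbs in both tags, to 10.8 and 10.5 CPM, and FURIN is lower with E2 in both.

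For the other genes the test across all genes set the scale. A gene counts as called where its Benjamini-Hochberg adjusted p in edgeR's quasi-likelihood test was under 0.05. In the fit with no block 0 of 15599 genes were called (0%), and 150 had an unadjusted p under 0.05. DESeq2 called 1 and limma-voom 0. None of the 7 genes other than NPPC was called by these tools, and 0 of the 7 had an unadjusted p under 0.05 in edgeR. When the tag was held as a block, 1492 genes were called by edgeR, 9.56% of those tested, of which 956 (6.13%) were higher and 536 (3.44%) lower. With library size as the only scaling the split was 911 and 775. With the block 1 of the 7 genes was called, FURIN, a share near that background.

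FURIN, the gene of the processing protease, had 73.1 (A4) and 56.8 (B212) CPM in DMSO and 59.8 and 47.0 CPM in E2. It was lower with E2 within each tag, but the groups overlapped because the E2 library of A4 lay above the DMSO library of B212. With the block it fell by 0.28 ± 0.073 (SE) on the log2 scale, with an edgeR adjusted p of 0.0208, against an adjusted p of 0.9999 with no block. This call was lost with the length and GC trend removed, where the log2 fold change was -0.14 (adjusted p = 0.210 in edgeR), and in DESeq2 with the block (adjusted p = 0.0530). FURIN has 61.7% GC, the highest of the 8.

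NPR2, the cyclase that binds the peptide, had 2.05 (A4) and 2.50 (B212) CPM in DMSO and 2.41 and 3.44 CPM in E2. It was higher with E2 in both tags, by 1.18-fold (0.948 to 1.47) in A4 and 1.38-fold (1.14 to 1.66) in B212, with overlapping groups. Its log2 fold change with the block was 0.36 ± 0.16 (SE), not called by edgeR (adjusted p = 0.163). NPR2 exons overlap those of SPAG8 on the opposite strand by 329 bases in GENCODE 29. SPAG8 had 6 to 27 counts against 150 to 252 for NPR2, and the strand setting of the counting is not given in the sources used here.

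NPR1, the cyclase for the atrial and brain peptides, had 3.09 and 3.06 CPM in DMSO against 2.62 and 2.44 CPM in E2. Both E2 libraries lay below both DMSO libraries, an ordering whose share among all genes was not counted. The log2 fold change was -0.28 ± 0.15 (SE) with the block and was not called (edgeR adjusted p = 0.260). The ratio of NPR2 to NPR1 per kilobase was 0.763 (95% counting interval 0.616 to 0.942) in A4 DMSO and 1.06 (0.868 to 1.29) in A4 E2. In B212 it was 0.938 (0.779 to 1.13) in DMSO and 1.62 (1.33 to 1.97) in E2. The ratio was higher with E2 in both tags, but neither gene was called. Its intervals leave out the spread between cultures, so a shift of the ratio with E2 was not tested.

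For the remaining genes no E2 difference was called. NPR3, the clearance receptor, had 27.2 and 24.0 CPM in the A4 DMSO and E2 libraries and 4.76 and 4.90 CPM in those of B212. PDE5A had 12.1 and 13.1 CPM in A4 and 20.2 and 18.8 CPM in B212. PRKG2, the membrane-bound kinase, had 4.15 and 3.66 CPM in A4 and 5.79 and 6.22 CPM in B212. Each of these 3 genes was higher with E2 in only 1 of the tags, NPR3 and PRKG2 in B212 and PDE5A in A4. PRKG1, the kinase of smooth muscle and platelets, had 46 to 82 counts a library, with 1.12 and 0.963 CPM in A4 and 0.680 and 0.628 CPM in B212.

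With the block the log2 fold changes were -0.092 ± 0.099 (SE) for NPR3, -0.17 ± 0.25 for PRKG1, -0.030 ± 0.13 for PRKG2 and 0.0010 ± 0.094 for PDE5A, with edgeR adjusted p-values of 0.606 to 0.996. The low counts of PRKG1 left its fold in A4 anywhere from 0.623 to 1.19 by counting error alone, so a change of that size was not detectable at this depth.

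**Figure D3:**
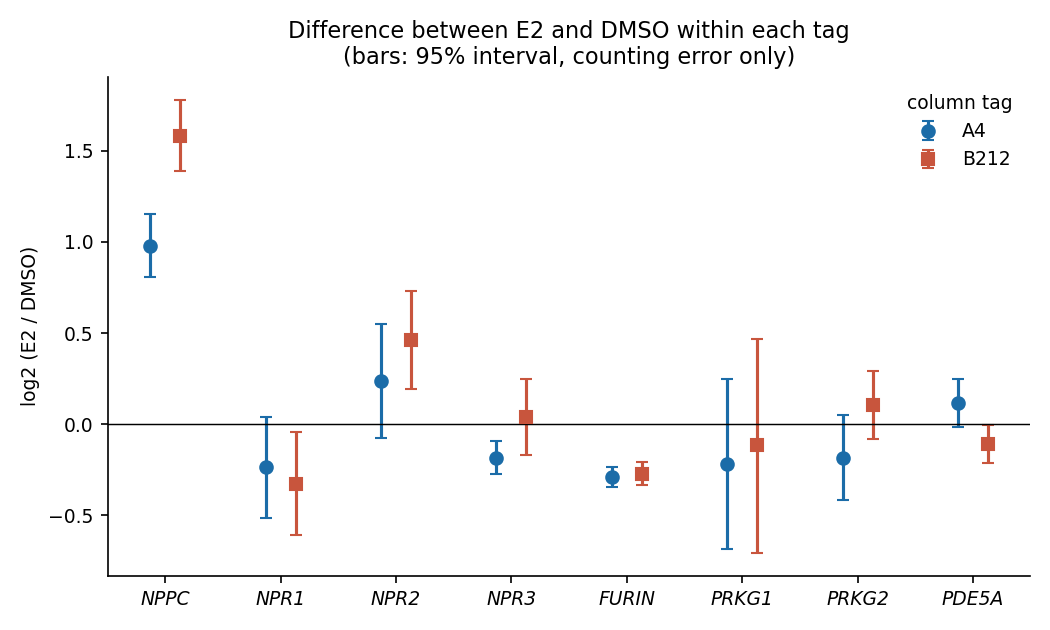
Log2 difference between E2 and DMSO within A4 (blue circles) and B212 (red squares) for each gene, with 95% intervals that cover counting error only. NPPC lies at 0.98 and 1.58, and the other 7 genes lie between -0.32 and 0.46. NPPC was chosen for being higher with E2 in both tags, so its place apart is a description only.

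A further 52 genes of natriuretic peptide and cGMP signalling were listed by role, and 31 of them passed the filter on low counts. With no block edgeR called 0 of the 31, as did DESeq2 and limma-voom, with 0 at an unadjusted p under 0.05 in edgeR. With the block 9 of the 31 had an unadjusted p under 0.05 in edgeR, against 3953 of the 15599 genes tested. After adjustment edgeR called 1 of the 31, against 9.56% of all genes tested. That gene was GNAI2, a subunit of the inhibitory G proteins, which fell by 0.24 ± 0.068 (log2, SE; edgeR adjusted p = 0.0352), with 8917 (DMSO) and 8580 (E2) counts in A4 and 10765 and 7759 in B212. The call was lost with the length and GC trend removed, with DESeq2 size factors and with DESeq2. The median log2 fold change of the 31 genes was -0.13, against -0.0081 over all genes tested.

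The related peptide gene NPPA had 11 to 23 counts a library. Its log2 fold change with E2 was 0.68 in the blocked fit (edgeR adjusted p = 0.355). RGS2, a regulator of G protein signalling that the cGMP kinases phosphorylate, had a log2 fold change of 0.45 ± 0.15 (SE), just outside the threshold (edgeR adjusted p = 0.0681). PDE3A, a phosphodiesterase that cGMP inhibits, had -0.54 ± 0.19 (adjusted p = 0.0746, edgeR). These 3 genes were picked after their values were seen.

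**Figure D4:**
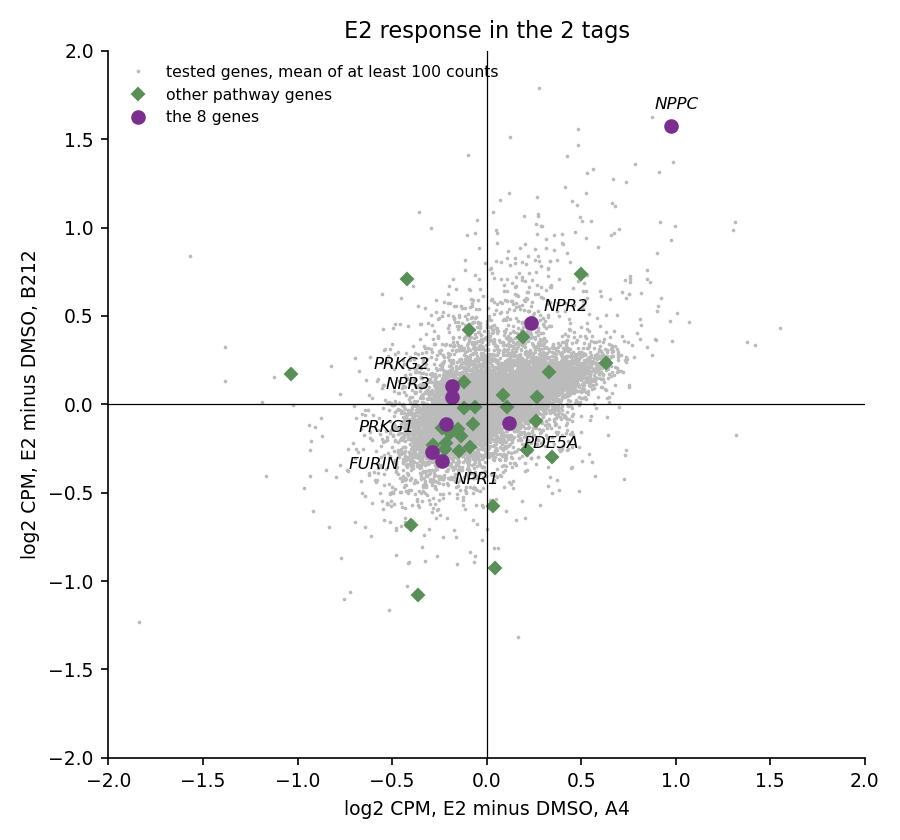
Log2 CPM difference between E2 and DMSO in A4 (horizontal) and B212 (vertical). Grey dots are 12489 tested genes with a mean of at least 100 counts, green diamonds the other pathway genes tested and purple circles the 8 genes. NPPC, chosen for being higher with E2 in both tags, stands at the upper right and the other 7 lie within the grey cloud.

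The gene profiles most like that of NPPC were found by the Euclidean distance between log2 CPM values centred on each gene's mean over the 4 libraries, among 12488 genes. The nearest were GPR89B (distance 0.33), GAB3 (0.42), SAMD11 (0.45), SNORD76 (0.46) and MSMB (0.51). GPR89B had 100 (DMSO) and 224 (E2) counts in A4 and 64 and 145 in B212. MSMB, which encodes a secreted protein of the prostate and other epithelia, had 393 and 824 counts in A4 and 370 and 577 in B212. GPR89B has a near-identical copy and SNORD76 lies inside another gene, so how reads were divided between them is uncertain. With 4 libraries this likeness describes little more than a rise with E2 in both tags.

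The second comparison was B212 against A4, with treatment as a covariate. The choice of NPPC did not use it, and it compares these cells only. NPR3 differed most. It had 1994 (DMSO) and 1966 (E2) counts in A4 against 406 and 359 in B212, so that all A4 values lay far above all B212 values. Its log2 fold change was -2.41 ± 0.10 (SE; edgeR adjusted p = 1.03e-13), and A4 stood 5.30-fold above B212. Over all genes edgeR called 7950, or 51.0% of those tested, of which 3927 (25.2%) stood higher in B212 and 4023 (25.8%) lower. Scaling by library size alone split them 4761 to 3176. Of the 8 genes 7 were called, 3 higher and 4 lower in B212.

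PDE5A and PRKG2 were higher in B212. PDE5A had 12.6 ± 0.722 CPM in A4 and 19.5 ± 1.02 in B212 (SD, n = 2). Such an SD is over the DMSO and E2 libraries of a tag, so it holds the treatment difference and is no replicate spread. For PDE5A the log2 fold change was 0.63 ± 0.094 (SE, edgeR adjusted p = 1.31e-05). PRKG2 had 3.90 ± 0.349 CPM in A4 and 6.0 ± 0.306 in B212, a log2 fold change of 0.62 ± 0.13 (edgeR adjusted p = 4.82e-04). PRKG1 went the other way. Its log2 fold change was -0.67 ± 0.25 (edgeR adjusted p = 0.0297), a call that DESeq2 did not make (adjusted p = 0.261). The ratio of PRKG2 to PRKG1 per kilobase was 5.35 and 5.48 in the A4 libraries and 12.3 and 14.3 in those of B212.

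FURIN was lower in B212, with 66.4 ± 9.40 CPM in A4 and 51.9 ± 6.89 in B212 (SD over DMSO and E2, n = 2). The log2 fold change was -0.36 ± 0.073 (SE, edgeR adjusted p = 4.07e-04). NPR2 was higher in B212 by 0.40 ± 0.16 and NPPC lower, with a log2 fold change of -0.32 ± 0.13. Their edgeR adjusted p-values of 0.0401 and 0.0483 lay just inside the threshold. DESeq2 called neither (0.279 for NPR2 and 0.159 for NPPC), and limma-voom called neither (0.0515 and 0.113). Leaving out the DMSO library of A4 brought the NPPC difference to -0.051, and leaving out its E2 library to -0.66. NPR1 had 2.85 ± 0.329 CPM in A4 and 2.75 ± 0.436 in B212. Its log2 fold change was -0.056, and 0.010 with library size as the only scaling, and it was not called (edgeR adjusted p = 0.785).

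The RNA of the signalling and clearance receptors stood in different proportions in A4 and B212, and receptor protein was not measured. NPR3 per kilobase was 6.67 times (95% counting interval 5.65 to 7.93) the level of NPR2 in A4 DMSO and 4.98 times (4.30 to 5.80) in A4 E2. In B212 the ratio was 0.957 (0.809 to 1.13) in DMSO and 0.715 (0.607 to 0.843) in E2. The NPPC level per kilobase was 1.41 times that of NPR3 in A4 DMSO and 3.16 times in A4 E2, and 5.13 and 14.9 times in B212. The ratios use the longest coding transcripts and shift with the transcript length assumed, but their order between libraries does not.

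Marker genes of other cell types also differed between the tags, in both directions. The summed level of 5 smooth muscle markers was 211.5 and 255.5 CPM in A4 and 108 and 98.2 CPM in B212, most of it from TAGLN. ACTA2, the smooth muscle actin, had 11.9 and 12.6 CPM in A4 and was above both values in each B212 library, at up to 14.9 CPM, and MYH11, the muscle myosin, had 0.355 to 0.480 CPM. The summed level of 7 stromal markers was 131 and 95.2 CPM in A4 and 46.3 and 38.3 CPM in B212, nearly all from COL1A1. THY1 of the same list went the other way, with 1.19 and 1.38 CPM in A4 and 3.40 and 3.19 CPM in B212. The 4 endothelial markers summed to 3.70 and 2.30 CPM in A4 and 5.11 and 4.09 CPM in B212, most of it from VWF, and the 5 leukocyte markers to 1.64 and 2.19 CPM in A4 and 2.45 and 2.25 CPM in B212. NPR3, PRKG1 and FURIN were lower in B212, as were the TAGLN and COL1A1 levels, and the part of these markers in their differences was not tested. The 8 epithelial markers summed to 2453 and 2301 CPM in A4 and to 3063 and 2778 CPM in B212. All libraries came from the same cell line, so these marker levels do not show that other cell types were present. Bulk RNA cannot tell a difference in all cells from a difference in some of them.

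Of the 31 other pathway genes tested, 20 were called between the tags, against 51.0% of all genes tested, 6 higher and 14 lower in B212. Their median absolute log2 fold change was 0.47, against 0.28 over all genes tested. In the group of peptides and processing enzymes 6 of 7 tested genes were called lower in B212 and 0 higher, against 25.8% and 25.2% of all genes tested. The precursor proteases PCSK6 and PCSK7 had log2 fold changes of -0.88 ± 0.089 (SE) and -0.46 ± 0.077. MME, the neprilysin gene whose product degrades natriuretic peptides, had at least 185 counts in each A4 library and 34 and 19 in B212, a log2 fold change of -2.94 ± 0.24. IDE, a second degrading protease, had -0.55 ± 0.070.

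Among phosphodiesterases and cGMP exporters 8 of 12 tested genes were called, 3 higher and 5 lower in B212, against 51.0% of all genes tested (25.2% higher and 25.8% lower), a share not far from that background. PDE11A, which hydrolyses cGMP and cAMP, was higher by a log2 fold change of 1.40 ± 0.12 (SE), PDE9A by 1.77 ± 0.23 and PDE6B by 1.18 ± 0.14. PDE1B, a calmodulin-dependent form, fell from 100 and 130 counts in A4 to 6 and 4 in B212, and PDE2A, which cGMP stimulates, from 82 and 68 to 7 and 11. Their log2 fold changes were -4.51 ± 0.37 and -3.07 ± 0.38. Of the cyclases and nitric oxide synthases 3 of 9 passed the filter and GUCY2C, the receptor of the gut peptide guanylin, had the smallest edgeR adjusted p of the 3, 0.0641.

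Among effectors and kinase substrates 6 of 9 tested genes were called, 3 in each direction, likewise not far from the 51.0% of all genes tested. GNAI1, an inhibitory G protein subunit of the kind that NPR3 couples to, was higher in B212 by 0.96 ± 0.070 (log2, SE), and KCNMA1, a potassium channel opened downstream of the cGMP kinases, by 0.75 ± 0.16. MRVI1, the gene of a PRKG1 substrate, was higher with 19 and 16 counts in B212 against 6 and 0 in A4. Of the 12 genes named here for the tags, MRVI1 had the largest edgeR adjusted p, 0.00711.

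**Figure D5:**
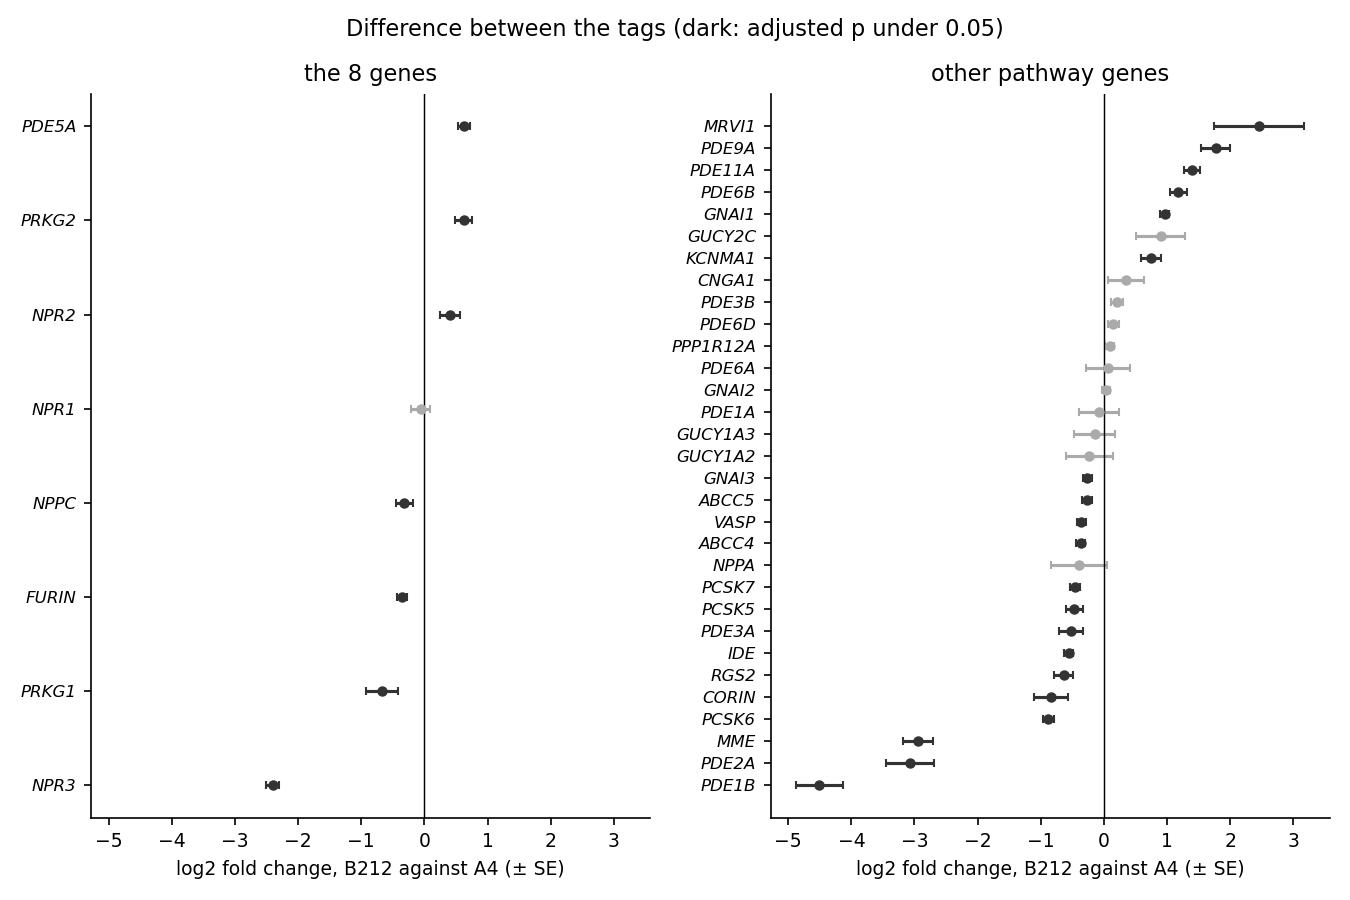
Log2 fold change of B212 against A4, with its standard error, for the 8 genes (left) and the 31 other pathway genes tested (right), on a shared horizontal scale. Dark points passed an edgeR adjusted p under 0.05 and grey points did not; NPR3 lies at -2.41 on the left, and PDE1B, PDE2A and MME lie at -4.51, -3.07 and -2.94 on the right.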

How the data were processed

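RNA was sequenced from poly(A)-selected stranded libraries, per the labels' protocols, with 500 ng of RNA each. The deposited values are raw read counts per gene symbol, made by the authors, as whole numbers whose totals differ between libraries. The submitters' processing notes name HISAT2, SAMtools, featureCounts, DESeq2 and hg19, without versions or settings, and the strand setting and annotation are not given in the sources used here. Another 4 columns of the table matched no sample and were not used.

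Genes were kept by filterByExpr (minimum count 10) and scaled by TMM in edgeR 4.0.16 (R 4.3.3), and tested by its quasi-likelihood test with Benjamini-Hochberg adjustment at 0.05. Log2 CPM used a prior count of 2. The design without a block was the planned one. The tags pair the libraries by column name, and same-tag deviations from the group means correlated at r = 0.871 across 15599 genes, a single independent value with 2 groups of 2. DESeq2 1.42.0, limma-voom 3.58.1, other scalings and filters, libraries left out and a length and GC trend (mgcv 1.9-3, GENCODE 29, 93.5% of tested genes) were alternatives. Fits were checked on simulated counts.

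The 8 genes and the lists were chosen with earlier results of these data known. Named were the 8 genes, up to 6 other pathway genes called in each direction and comparison, smallest p first, and the 5 profiles nearest to NPPC with a mean of at least 100 counts.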

Additional observations from a re-analysis of the deposited data

Results flagged for a closer look

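Of the 8 genes and the 13 other pathway genes named by rule, 8 had E2 differences of opposite sign in A4 and B212, as did 29.9% of all genes tested. NPPC was chosen for the same sign in both tags and GNAI2 was named for its E2 call, so this count is a description only. With 1 library for each tag and treatment the difference between the tags was not tested, and the intervals below cover counting error only. NPR3 had a log2 difference of -0.184 in A4 and 0.042 in B212. PRKG2 had -0.183 and 0.104. PDE5A had 0.117 in A4 and -0.106 in B212, and the interval of its difference between the tags, -0.39 to -0.057, left out 0.

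MME had a log2 difference of 0.0328 in A4 and -0.62 in B212. PDE1B had 0.215 and -0.365, and PDE2A had -0.434 and 0.872, each with at most 11 counts in a B212 library. PDE9A had 0.358 in A4 and -0.305 in B212. KCNMA1 had -0.0915 and 0.426, with an interval of the difference of 0.10 to 0.93. For the other 6 genes the interval of the difference included 0.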

How the results depend on the processing

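Transcript length choice was added after seeing the data; the other alternatives were planned. For E2 with no block the 0 genes called became 1 with DESeq2 and stayed at 0 under the other scalings, filters and limma-voom and without any library. With the replicate block (the tag) there were 1492, or 717 with DESeq2 size factors, 533 with DESeq2, 1138 with limma-voom, 1686 with library size only and 438 once the trend on length and GC content was taken out; the causes were not tested. The block calls 1 of the 7 genes other than NPPC (FURIN) in edgeR, also with DESeq2 size factors, limma-voom and library size only, and 1 other pathway gene (GNAI2), also with limma-voom and library size only. For the tags, DESeq2 called 4 of the 8 genes (FURIN, NPR3, PDE5A, PRKG2) and 5538 genes in all (35.5%), against 7950 (51.0%) in edgeR; with no treatment term there were 3 (without FURIN), with 13 other pathway genes and 4456 genes in all.

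Among the 8 genes, signs changed only for differences near 0 or where leaving out a library unbalanced the tags. PDE5A was 0.0010 with the block and NPR3 0.023 with limma-voom for E2, and NPR1 0.010 between the tags with library size only. Single libraries were left out in the fit with no block. The E2 values then ran from -1.72 to 1.60 (NPR3), -0.53 to 0.23 (PRKG1), -0.44 to 0.31 (PRKG2) and -0.34 to 0.40 (PDE5A). With no change of sign they ran from 0.087 to 0.58 (NPR2) and -0.48 to -0.088 (FURIN). The 5 profiles nearest to NPPC were the same under both alternatives. Counts under 100 limit PRKG1 most.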

Other observations

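The genes beside NPPC in the RefSeq gene order were looked at after its values were known. On the side of DIS3L2 follow the alkaline phosphatase genes ALPP, ALPPL2 and ALPI and then ECEL1. ALPI had 308 (DMSO) and 634 (E2) counts in A4 and 364 and 970 in B212, a log2 fold change of 1.27 with the block (edgeR adjusted p = 3.62e-05), against 1.27 for NPPC. ALPP rose by 0.52 and ALPPL2 by 0.39 on the same scale (edgeR adjusted p-values of 0.00697 and 0.00927). With no block none of the 3 was called. DIS3L2, between NPPC and ALPP, had 0.21 (adjusted p = 0.148, edgeR) and ECEL1 0.37 (0.163). On the other side, COPS7B had -0.015, PDE6D 0.15 and PTMA 0.19, none called. The phosphatase genes are related in sequence, and how reads were divided among them is uncertain. Between the tags ALPP was lower in B212, with a log2 fold change of -1.05, and ALPI higher by 0.44.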
